A study of Mus musculus with 6 samples.

Results

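Cytosolic ribosomal proteins are described here in purified colonic crypt cells of C57BL/6 mice aged 4 weeks. Members were chosen by gene symbol alone, as genes with the numbered Rpl and Rps names, the stalk proteins Rplp0 to Rplp2, Rpsa and named paralogs such as Rps4l, Rps27l and Rpl22l1. The rule named 89 of the 55487 genes in the files. Of these, 82 had at least 10 counts in 3 or more of the 6 libraries, and all 82 had at least 10 counts in every library. The 3 control mice had the genotype M14(f/f), in which both copies of M14 are flanked by loxP sites, and the 3 mutant mice had the genotype M14(f/f);Villin-Cre. M14 is read as Mettl14, which holds the RNA while its partner Mettl3 adds N6-methyladenosine to it, and Villin-Cre acts in the gut epithelium. Controls carried no Cre, so effects of Cre and of the loss of Mettl14 cannot be told apart. The series text describes the mice as 3 pairs, yet which control belongs to which mutant, or which mice shared a litter, is in no label, and p-values measure the spread between these 6 libraries.

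The ribosome is built from a small 40S and a large 60S subunit, each holding ribosomal RNA and a fixed set of proteins, nearly all present once. In animals their messenger RNAs share a 5′ terminal oligopyrimidine tract, called TOP, through which mTORC1 controls their translation together. Ribosomal protein genes have left many processed pseudogenes in mammalian genomes, which are intronless copies made by reverse transcription. A few members have a true paralog that takes the place of the common protein in some tissues. Crypt cells divide quickly and depend on steady ribosome supply.

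The libraries held 24181631 to 35183636 counts. Mettl14 fell from 23.0 ± 2.78 CPM (counts scaled to library size, mean ± SD, n = 3) to 12.8 ± 1.96 CPM, which is -0.85 as a log2 fold change, called log2 change below (SE 0.13, edgeR adjusted p = 6.41e-04). Some libraries stood apart on sex-linked genes. Xist was at 1.28 to 1.77 CPM in controls and at 654, 53.2 and 1.51 CPM in mutants 1, 2 and 3, whereas the Y-linked Ddx3y was at 53.5 to 58.3 CPM in controls and at 0.543, 38.0 and 44.3 CPM in the mutants. Mutant 1 thus had high Xist and almost no Ddx3y, and mutant 2 had both, against the pattern of the other 4 libraries. Counts of called members without mutants 1 and 2 stand beside the main counts below. The share of counts on a ribosomal RNA row was 7.76% to 8.90% for controls, against 12.9%, 7.44% and 5.16% for mutants 1, 2 and 3.

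Markers of other cells also differed between the groups. The summed level of 12 epithelial markers was 15779 to 17667 CPM in controls and 12451 to 14955 CPM in mutants. Over 6 colon markers it was 17905 to 22714 against 7905 to 10098 CPM, and over 6 fibroblast markers 194 to 226 against 84.7 to 102 CPM. Macrophage and dendritic markers summed to 34.5 to 43.6 CPM in controls and 85.0 to 116 CPM in mutants, with 11 of 12 higher and 1 lower by the edgeR test. Endothelial markers, 5 genes of which 2 were called higher, summed to 10.4 to 11.3 CPM in controls and 19.8 to 21.9 CPM in mutants. Neutrophil, T cell and B or plasma cell markers summed to 9.02 to 13.0, 4.47 to 6.44 and 1.22 to 1.66 CPM in controls, and to 13.1 to 39.8, 6.52 to 9.86 and 1.78 to 3.85 CPM in mutants. No marker of these lists was at 0 in all controls. The part of these cells in the results below was not tested, and in bulk RNA fewer cells of a type and less RNA per cell cannot be told apart.

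Most ribosomal protein messages changed little in the mutant crypts. Of 82 members tested, 10 rose and 2 fell by the edgeR test at an adjusted p under 0.05, and 70 did not pass. Those 12 are 14.6% of the members, against 46.3% of all 18376 tested genes (23.5% of all genes higher and 22.7% lower). The median log2 fold change of the members was 0.05, with quartiles of -0.12 and 0.19, and the median of all genes was 0.01. Of the members, 47 had a positive and 35 a negative value. For 56 members the 95% interval of the fold change lay inside 1.5-fold either way. Among the 19 members with a mean of at least 100 CPM, 3 rose and none fell at that threshold, against 55.8% called among all 1967 genes of that level. Mutant and control values did not overlap for 24 members (29.3%), against 56.7% of all tested genes. With no count filter, 16 of 89 members rose and 4 fell, against 21.5% of all 43508 genes called. Scaled by library totals alone, 15 members rose and 1 fell, and with mutant 3 as the sole mutant library 7 rose and 1 fell, 7 of the 12 main calls among them. In that fit the lone mutant is assumed to vary like the controls, which alone give the spread. The count of falling members was 6 without control 2 and 1 without control 3, mutant 2 or mutant 3. Of all tested genes 44.5% were called with library totals and 41% without control 2. The share was 37.3% without control 3, 41.1% without mutant 2 and 38.3% without mutant 3.

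The subunits are given apart. Of 34 small subunit members 4 rose and none fell (11.8% called), with a median log2 fold change of 0.04. Of 48 large subunit members 6 rose and 2 fell (16.7% called), with a median of 0.05. Of all tested genes 46.3% were called. The single member beyond 2-fold was Rps4l. The other 81 lay between -0.58 and 0.96, as the plot of fold changes shows.

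**Figure D1:**
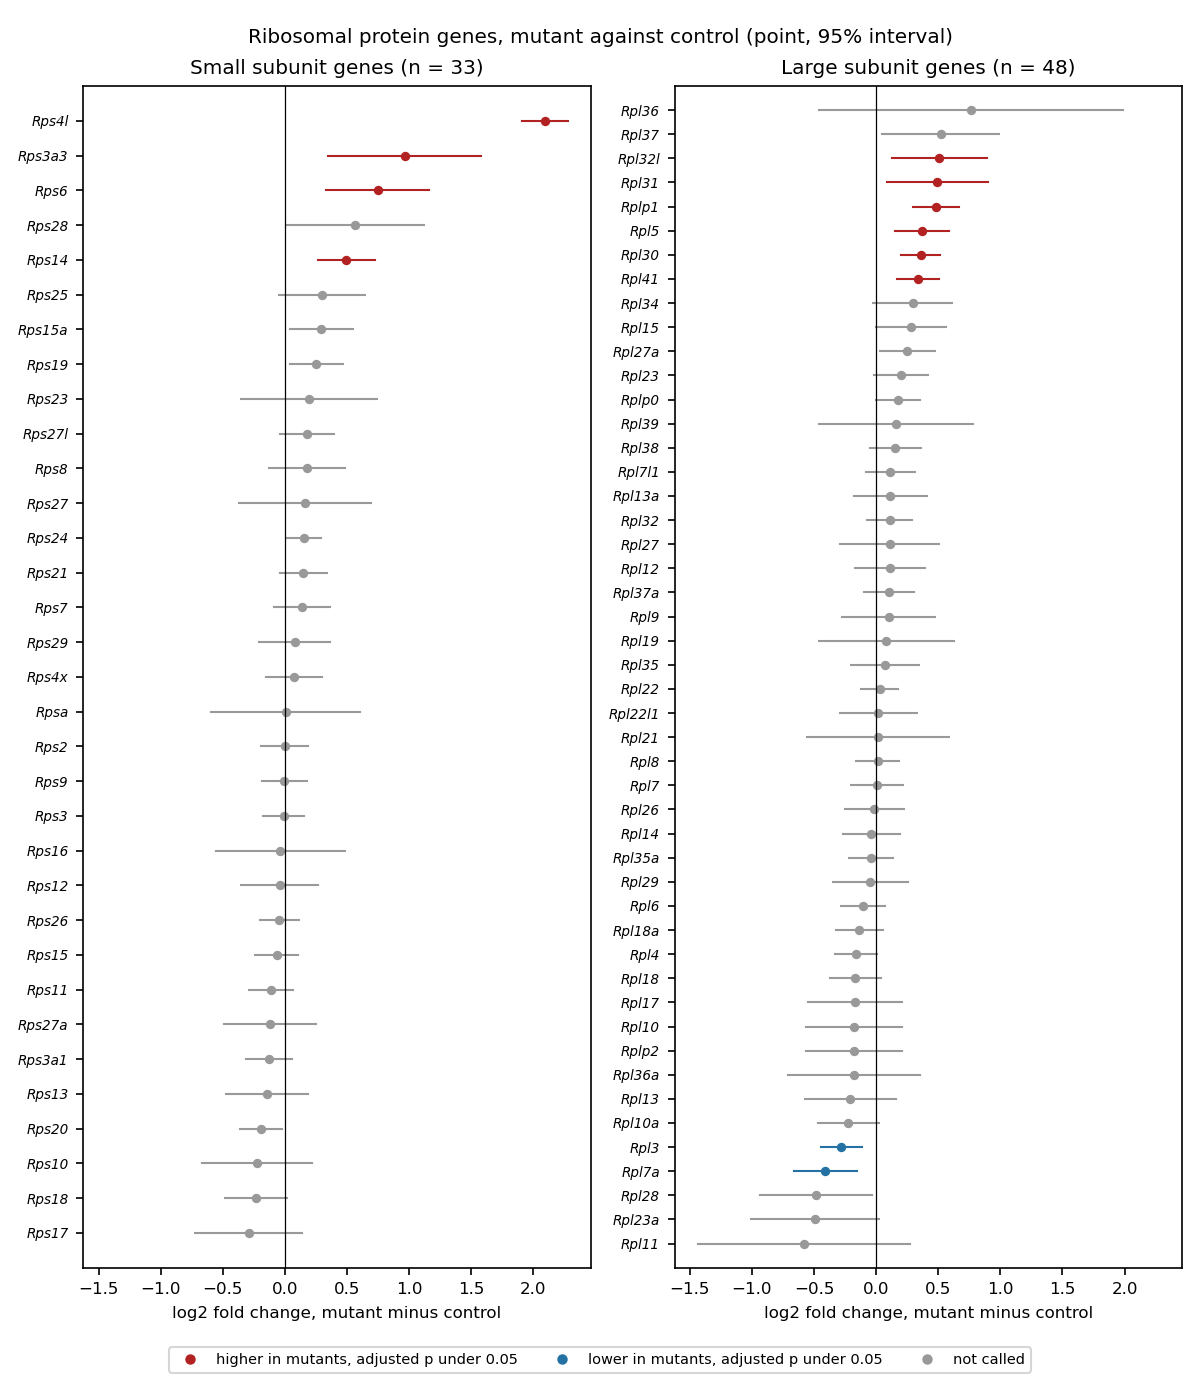
Log2 fold change (mutant minus control, edgeR) of 81 of the 82 tested members with its 95% interval, ordered by value within the small subunit (33 genes) and the large subunit (48 genes). Red points are the 10 members that rose, blue points the 2 that fell, and grey points 69 of the 70 that did not pass an adjusted p of 0.05. Rps4l lies alone at 2.09.

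Together the members took 0.721%, 0.650% and 0.667% of counts in controls 1 to 3 and 0.717%, 0.751% and 0.771% in mutants 1 to 3. The means were 0.680 ± 0.0372% and 0.746 ± 0.0274% (SD, n = 3 each), a difference of 0.0668 percentage points, and control 1 lay inside the mutant range. With the ribosomal RNA row left out of the totals, the means were 0.741 and 0.816% and the groups did not overlap (0.713 to 0.782% against 0.812 to 0.823%), and without Rps4l among the members they were 0.678 and 0.738%. With TMM-scaled totals the difference was 0.0351 points.

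The largest change among the members was that of Rps4l (ENSMUSG00000063171.4). It is a relative of Rps4x, an X-linked gene for a small subunit protein. Rps4l lies on chromosome 6 at 148354656 to 148355598 on the plus strand (GRCm38), in 1 exon, and GENCODE release 21 lists it as a transcribed processed pseudogene. Its transcript holds an open reading frame of 262 codons, and that of Rps4x holds 263. Over 789 aligned coding bases the sequences are 80.1% identical, with 157 mismatches and 3 gap bases. The stretch below, coding bases 475 to 534 of Rps4x, is shown because it tells the transcripts apart. Capitals mark the 20 mismatched bases.
Rps4l: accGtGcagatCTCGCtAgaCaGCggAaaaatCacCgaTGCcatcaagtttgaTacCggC
Rps4x: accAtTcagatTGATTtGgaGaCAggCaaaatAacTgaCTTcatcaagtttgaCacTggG

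Rps4l was at 20.0, 21.5 and 18.5 CPM in controls and at 86.7, 79.8 and 89.3 CPM in mutants. The lowest mutant library was far above the highest control library, and the spread within each group was small. The means were 20.0 ± 1.48 and 85.3 ± 4.91 CPM (SD, n = 3 each), a log2 change of 2.09 with an SE of 0.08 (edgeR adjusted p = 1.44e-07). Leaving out any library gave 2.04 to 2.15. Rps4x was at 16.5, 16.1 and 16.0 CPM in controls and at 16.2, 15.6 and 19.2 CPM in mutants, and its log2 change of 0.07 with an SE of 0.10 (adjusted p = 0.584) did not pass. Per length, Rps4l went from 55.4 ± 4.27 to 238 ± 21.02 TPM (counts scaled to exon length and library size), and Rps4x from 25.9 ± 1.28 to 27.5 ± 4.43 TPM.

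Most of the Rps4l transcript differs from every other annotated transcript. Of its 50-base windows, 85.1% occur in no transcript of another annotated gene, against 27.8% for Rps4x. How far this moved the ratio of their counts was not tested. Rps4l lies within the span of Tmtc1, which is read from the opposite strand. Tmtc1 was at 1.28, 1.72 and 2.74 CPM in controls and at 1.86, 1.68 and 1.40 CPM in mutants, a log2 change of -0.22 with an SE of 0.30 (adjusted p = 0.590). Counting used strand, per the file headers, and how well it separated reads of the 2 genes was not tested.

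Both other members that GENCODE release 21 lists as processed pseudogenes also rose, at lower levels. Rps3a3, on chromosome 13 at 108670603 to 108671397 inside Pde4d, is a copy of Rps3a1 of the small subunit. It was at 0.797, 0.770 and 0.579 CPM in controls and at 1.16, 1.44 and 1.59 CPM in mutants, a log2 change of 0.96 with an SE of 0.28 (adjusted p = 0.0169). The groups did not overlap, but the levels rest on 18 to 28 counts in controls and 30 to 58 counts in mutants. The adjusted p was 0.0575 without control 3 and 0.0687 without mutant 3. Rpl32l, on chromosome 10 at 20208490 to 20208888 inside Map7, is a copy of Rpl32 of the large subunit. It was at 5.41, 5.21 and 3.86 CPM in controls and at 6.90, 6.17 and 7.51 CPM in mutants, a log2 change of 0.51 with an SE of 0.17 (adjusted p = 0.0345). Its adjusted p was 0.124 without control 3, 0.104 without mutant 3, 0.0614 without mutant 1 and 0.0508 without control 2. Both copies lie on the plus strand, as do Pde4d and Map7, so strand does not separate reads of a copy from unspliced reads of its host, whose part was not tested.

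Rps3a3 and Rps3a1 are 98.9% identical over 795 bases, with 9 mismatches. Coding bases 202 to 261 are shown because they hold 2 of these, in capitals. A read within the 795 bases that covers none of the 9 mismatches fits both genes.
Rps3a3: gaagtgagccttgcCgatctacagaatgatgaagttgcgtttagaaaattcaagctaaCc
Rps3a1: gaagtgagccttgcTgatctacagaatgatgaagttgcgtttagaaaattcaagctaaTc

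Rps3a1 itself was at 51.4, 52.0 and 61.1 CPM in controls and at 51.5, 49.9 and 49.1 CPM in mutants, with a log2 change of -0.13 (adjusted p = 0.230). Rpl32 was at 233, 200 and 210 CPM in controls and at 232, 222 and 241 CPM in mutants, with a log2 change of 0.11 (adjusted p = 0.292). The source genes overlapped between genotypes while their copies did not. Rpl32l and Rpl32 are 97.5% identical over 398 aligned bases. The other 79 members tested are protein-coding in that release, of which 7 rose and 2 fell, with a median log2 fold change of 0.02. Of all 14164 tested protein-coding genes 52.6% were called.

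In the small subunit, Rps6 and Rps14 rose beside those copies. Rps6 (chromosome 4, 86854660 to 86857412, minus strand) encodes the protein that S6 kinases phosphorylate. It was at 2.70, 2.01 and 2.38 CPM in controls and at 3.76, 3.93 and 4.22 CPM in mutants, a log2 change of 0.75 with an SE of 0.18 (adjusted p = 0.0084). All mutants lay above all controls, but only 15.4% of the windows of the Rps6 transcript are unique. Which part of its length gave the counts was not tested. Rps14 (chromosome 18, 60747098 to 60778546, plus strand) encodes a protein of the 40S platform. It was at 354, 307 and 276 CPM in controls and at 474, 424 and 422 CPM in mutants, a log2 change of 0.49 with an SE of 0.10 (adjusted p = 0.0032). The lowest mutant lay clear of the highest control.

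Rps19, which is mutated in many patients with Diamond-Blackfan anaemia, was at 93.2, 85.0 and 72.0 CPM in controls and at 97.4, 104 and 96.6 CPM in mutants. The groups did not overlap, and its log2 fold change of 0.25 had an adjusted p of 0.0535. Rps27a, made as a fusion with ubiquitin, had a log2 change of -0.12 (adjusted p = 0.584), and Rpsa, also known as the laminin receptor, one of 0.01 (SE 0.27, adjusted p = 0.989). Rpsa ranged from 4.06 to 8.95 CPM among controls alone. Of 18 tested genes on a list for Diamond-Blackfan anaemia, Rpl5 and Rpl31 rose and none fell (11.1% called, against 46.3% of all tested genes).

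In the large subunit, 1 of the 3 stalk genes rose. Rplp0 anchors the stalk that recruits elongation factors, and Rplp1 and Rplp2 bind to it as dimers. Rplp1 (chromosome 9, 61913284 to 61914542, minus strand) was at 291, 247 and 255 CPM in controls and at 365, 374 and 369 CPM in mutants, a log2 change of 0.48 with an SE of 0.08 (adjusted p = 0.0010). The 3 mutant libraries were nearly equal and all above the controls. Rplp0 was at 354, 374 and 359 CPM in controls and at 391.9, 393 and 441 CPM in mutants, without overlap, and its log2 fold change of 0.17 had an adjusted p of 0.0964. Rplp2 was at 134, 122 and 200 CPM in controls and at 148, 141 and 114 CPM in mutants, with a log2 change of -0.18 (adjusted p = 0.423). Control 3 set the upper end for Rplp2, and without it the value was 0.07. The differences between the 3 stalk genes were not tested.

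Rpl5 and Rpl11 carry 5S ribosomal RNA into the large subunit and, when free, bind Mdm2. Rpl5 (chromosome 5, 107900502 to 107909005) was at 18.1, 22.8 and 20.6 CPM in controls and at 26.3, 25.5 and 27.8 CPM in mutants, a log2 change of 0.37 with an SE of 0.10 (adjusted p = 0.0112). Rpl11 was at 5.38, 14.9 and 4.96 CPM in controls and at 6.01, 6.41 and 4.55 CPM in mutants. Control 2 was far above the other 5 libraries for Rpl11. Its log2 fold change was -0.58 (SE 0.38, adjusted p = 0.242) over all libraries and 0.12 (adjusted p = 0.649) without control 2, and ran from -0.89 to 0.12 over all alternatives.

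Rpl30, Rpl41 and Rpl31 rose as well. Rpl30, a large subunit protein that binds its own transcript in yeast, was at 27.2, 27.8 and 25.5 CPM in controls and at 35.2, 33.6 and 34.4 CPM in mutants, a log2 change of 0.36 with an SE of 0.07 (adjusted p = 0.0025). Rpl41, a very short protein of 25 codons, was at 169, 153 and 174 CPM in controls and at 209, 215 and 201 CPM in mutants, a log2 change of 0.33 with an SE of 0.08 (adjusted p = 0.0052). Both had narrow groups that did not overlap. Rpl31, at the rim of the tunnel through which the new chain leaves, was at 3.56, 2.93 and 4.35 CPM in controls and at 5.35, 4.85 and 5.04 CPM in mutants, a log2 change of 0.49 with an SE of 0.18 (adjusted p = 0.0481). Its adjusted p was 0.105 without control 1, 0.149 without control 2, 0.0994 without mutant 1, 0.0774 without mutant 2 and 0.0945 without mutant 3. It was the sole called member among 9 tested proteins of the tunnel rim (11.1%, against 46.3% of all tested genes).

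Rpl7a and Rpl3 fell. Rpl7a (chromosome 2, 26910764 to 26913318), a large subunit protein whose introns host 3 small nucleolar RNAs, was at 27.8, 27.8 and 32.4 CPM in controls and at 25.9, 20.1 and 20.4 CPM in mutants, a log2 change of -0.41 with an SE of 0.11 (adjusted p = 0.0146). Mutant 1 was close to the controls. The adjusted p was 0.0657 without control 3, 0.0548 without mutant 2 and 0.0579 without mutant 3. Rpl3 (chromosome 15, 80077791 to 80091868, minus strand), which reaches toward the peptidyl transferase centre, was at 60.8, 52.4 and 54.5 CPM in controls and at 45.8, 45.1 and 47.2 CPM in mutants, a log2 change of -0.28 with an SE of 0.07 (adjusted p = 0.0125). With mutant 3 as the sole mutant its adjusted p was 0.1195, and with library totals as the scaling 0.0764. Of the 12 called members, 8 stayed called without each library in turn, and they were Rps4l, Rps6, Rps14, Rplp1, Rpl5, Rpl30, Rpl41 and Rpl3. The plot of the called members by library shows the margin for each.

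**Figure D2:**
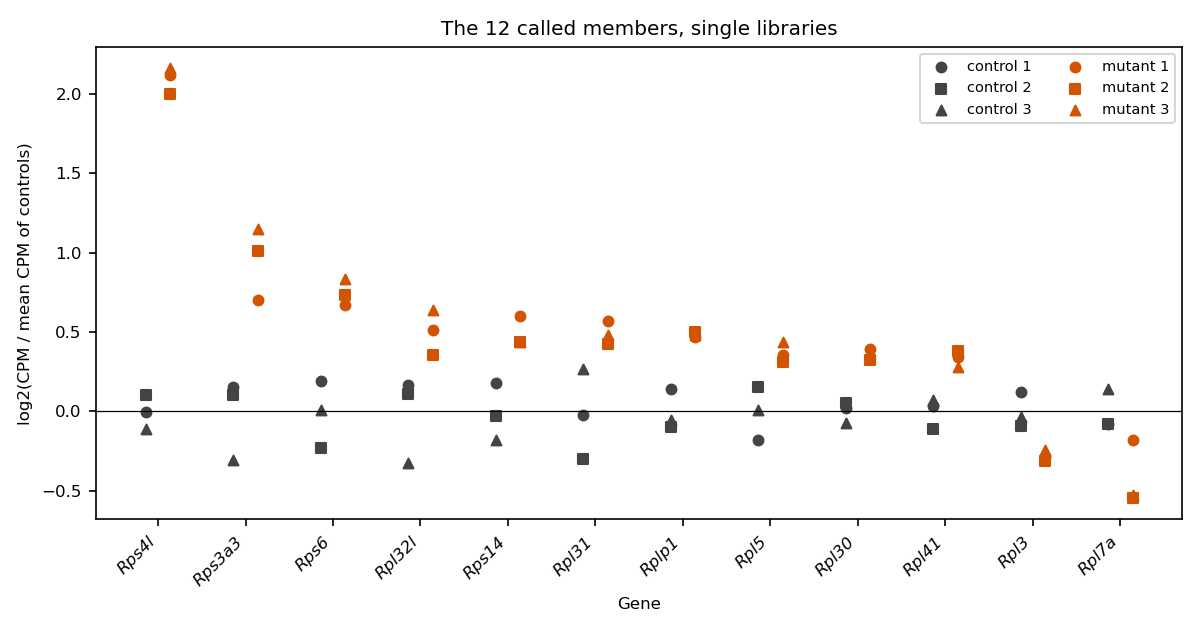
Level of the 12 called members in each library, as log2 of CPM over the mean CPM of the 3 controls, with controls in grey, mutants in orange and a marker shape per replicate number. For each gene the 3 mutant points lie on 1 side of the 3 control points. The gap is widest for Rps4l, and mutant 1 of Rpl7a lies nearest to its controls.

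Several members that did not pass varied widely within a group. Rpl36 was at 6.63, 6.64 and 2.19 CPM in controls and at 10.2, 13.8 and 2.58 CPM in mutants, so that 1 library of each group was low. Rpl37 was at 26.7, 27.5 and 14.7 CPM in controls and at 27.1, 36.6 and 35.1 CPM in mutants, and Rps28 was at 8.91, 8.74 and 4.47 CPM in controls and at 8.65, 12.7 and 11.5 CPM in mutants. In all 3 genes control 3 was the lowest control. With DESeq2, with limma-voom or with no count filter, Rpl37 and Rps28 were called, and Rpl36 was called with no count filter. The median coefficient of variation of a member was 12.5% in controls and 7.50% in mutants, and it exceeded 30% for 6 members in controls and 2 in mutants. The 4 X-linked members Rps4x, Rpl10, Rpl36a and Rpl39 did not pass the edgeR test, and none had an unadjusted p under 0.05.

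The low-count rule left out 7 named genes. Rpl24 had 6, 8 and 6 counts in controls and 11, 8 and 11 in mutants, just outside the rule. Rpl6l had 6, 4 and 3 counts against 14, 3 and 7. Rpl3l, the heart and muscle paralog of Rpl3, had 2, 2 and 1 counts in controls and 4, 5 and 7 in mutants. Rpl39l, a paralog best known from testis, had none in controls and 3, 4 and 2 in mutants. For a count of 0 the limit is 3 counts, which is 0.0822 to 0.1202 CPM over the 6 libraries and covers counting error only. Rpl10l, Rps12l1 and Rps3a2 were below the rule as well. The lowest counts among members that passed were those of Rps3a3 (given above) and Rps27, the latter with 45, 48 and 50 counts in controls and 34, 44 and 63 in mutants.

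Paralog pairs were compared within each library, where scaling plays no part. In 5 pairs both genes passed the low-count rule, and with 3 libraries a side the exact 2-sided permutation test cannot go below p = 0.1. For Rps4l over Rps4x the log2 ratio of counts was 0.276, 0.419 and 0.210 in controls and 2.42, 2.35 and 2.22 in mutants, a difference of 2.03 (exact p = 0.1, adjusted over the 5 pairs 0.25). In linear terms the ratio was 1.23 ± 0.0926 in controls and 5.04 ± 0.348 in mutants (SD, n = 3 each). The groups were widely separated, and the p is the smallest that this design gives.

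The pair of Rpl36al and Rpl36a also separated. Rpl36al, whose symbol the rule does not match, is a close relative of the X-linked Rpl36a, a protein near the exit site for transfer RNA. They are 87.9% identical over 321 coding bases, and bases 115 to 174 are shown because 12 mismatches, in capitals, set them apart there.
Rpl36al: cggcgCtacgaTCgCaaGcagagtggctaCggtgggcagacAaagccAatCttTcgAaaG
Rpl36a: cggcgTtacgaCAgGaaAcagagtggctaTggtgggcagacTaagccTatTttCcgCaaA

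Their log2 ratio was -0.227, 0.170 and 0.0117 in controls and 0.547, 0.601 and 1.01 in mutants, a difference of 0.73 (exact p = 0.1, adjusted 0.25) without overlap. Rpl36al was at 5.84, 5.04 and 7.98 CPM in controls and at 9.19, 9.86 and 8.58 CPM in mutants, a log2 change of 0.55 with an SE of 0.18 (edgeR adjusted p = 0.0276). Its adjusted p was 0.0871 without control 1, 0.0884 without control 2, 0.0510 without mutant 1 and 0.0775 without mutant 2. Rpl36a was at 6.83, 4.47 and 7.92 CPM in controls and at 6.28, 6.49 and 4.25 CPM in mutants (log2 fold change -0.18, adjusted p = 0.564).

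The other 3 ratios overlapped between the groups. Rpl22l1 over Rpl22, the pair best known from T cell development, differed by -0.02 on the log2 scale (exact p = 0.7). Rpl7l1 over Rpl7 differed by 0.10 (exact p = 0.6), and Rps27l, a p53 target, over Rps27 differed by 0.04 (exact p = 0.8). After adjustment each of these was at 0.8. Rpl39l over Rpl39, Rpl3l over Rpl3 and Rpl10l over Rpl10 were not compared because the minor gene was below the low-count rule. Among ribosomal proteins with names outside the rule, Fau, made as a fusion with a ubiquitin-like protein, had a log2 change of -0.41 (adjusted p = 0.0921). Rack1, a scaffold protein on the small subunit, had one of -0.02 (adjusted p = 0.868).

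**Figure D3:**
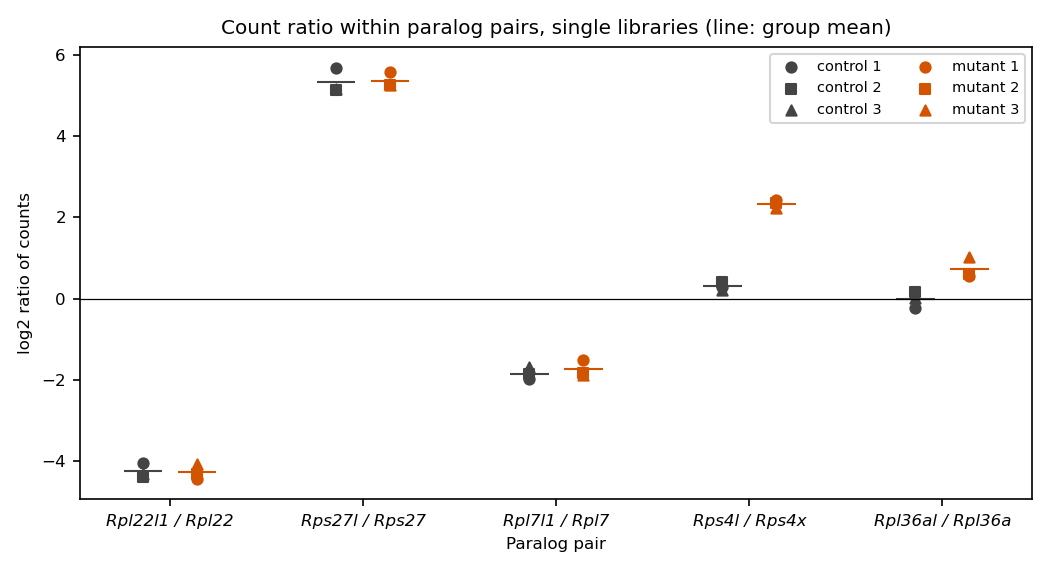
Log2 ratio of counts within 5 paralog pairs in each library, controls in grey and mutants in orange, with a line at the mean of each group of 3. Rps4l over Rps4x goes from about 0.30 to 2.33 and Rpl36al over Rpl36a from about -0.01 to 0.72 without overlap, and the other 3 pairs overlap.

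Measured levels differed widely among members. In controls the highest TPM values were those of Rpl4 (1416 ± 36.2), Rplp1 (1385 ± 171), Rpl8 (1064 ± 98.0), Rps15 (749 ± 29.6) and Rpl32 (582 ± 66.3). Rpl4 lines the exit tunnel, Rpl8 lies near the peptidyl transferase centre, and Rps15 lies in the head of the small subunit. Rpl4 and Rplp1 did not differ beyond the spread of Rplp1. The lowest were Rps3a3 (2.35 ± 0.437), Rps27 (3.59 ± 0.328), Rps6 (3.91 ± 0.694), Rpl28 (4.84 ± 0.706) and Rps23 (5.12 ± 1.44), and neighbours from Rps27 to Rps23 overlapped within their SD. The median over the 82 members was 35.1 TPM.

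Levels were also set beside sequence uniqueness. Over the 79 protein-coding members, Spearman's rho between the share of unique 50-base windows and the control TPM was 0.52, a description across genes that share their libraries. The share was 1.35% for Rps27 and 83.6% for Rpl4. Some members went the other way, such as Rpl28 (49.5%) and Rps23 (48.3%) among the 5 lowest levels, and Rpl39 with 83.5% unique windows at 9.31 TPM. The 26 members with a share under 25% had a median of 12.3 TPM, the 43 members from 25 to 75% had 54.8 TPM, and the 10 members with 75% or more had 181 TPM. Of the 26 least unique members 4 rose and 2 fell, of the 43 in between 3 rose, and of the 10 most unique none passed the edgeR test. Of all tested genes 46.3% were called. The difference in calls between these classes, whose levels also differ, was not tested.

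**Figure D4:**
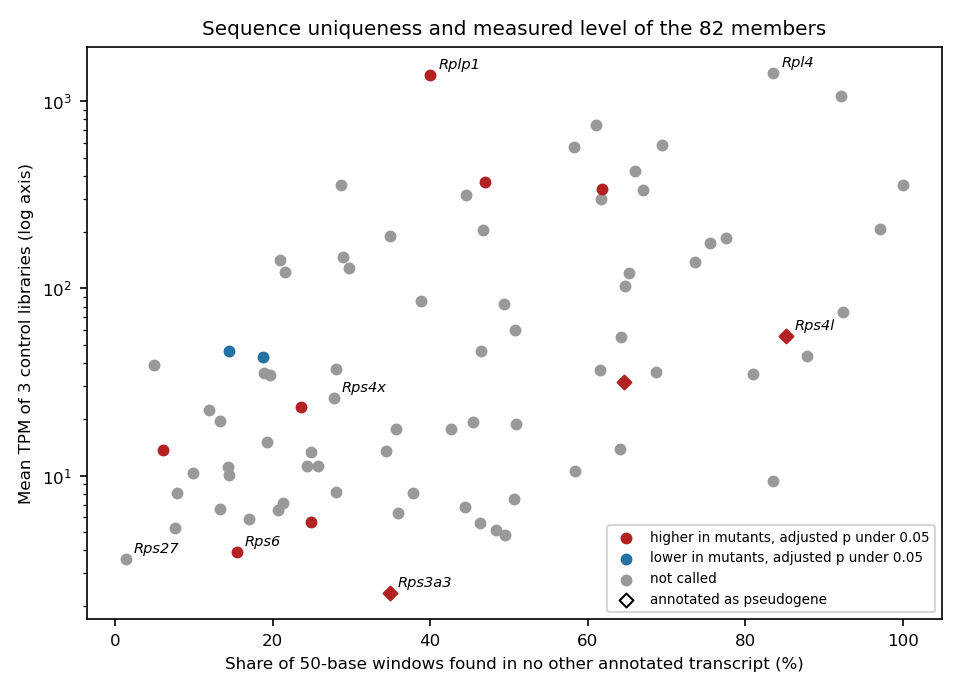
Mean TPM of the 3 controls (log axis) against the share of 50-base windows of a member's transcript that occur in no other annotated gene, for the 82 tested members. Red points rose, blue points fell, grey points did not pass, and diamonds are the 3 members annotated as pseudogenes. The lowest level is that of Rps3a3 (34.85% unique). Rps27 (1.35%) and Rps6 lie at the lower left, Rpl4 at the upper right, and Rpl39 (83.5%) low at the right.

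Start regions were taken from RefSeq on GRCm38.p6, the build of the files, for the 60 of 82 members that matched. Short pyrimidine runs that begin with C, as a TOP tract does, were searched on the sense strand from 10 bases before to 40 bases after the start. The letters CTTTTC were in 6 of 60 members, against 1.92% of 27025 genes. The letters CTTTCC were in 14 members (23.3% against 2.47%). The letters CTCTTT were in 13 members (21.7% against 2.01%). The 3 runs can overlap each other, and 25 members (41.7%, against 5.78% of genes) held at least 1. The following windows of 10 bases before and 20 bases from the start show such a run in capitals. Rps6 and Rpl38 are shown because the run begins at the annotated start, and Rpl15 because it lies a few bases further in.
Rps6, chr4:86857348-86857377, minus strand: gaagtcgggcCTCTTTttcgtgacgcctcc
Rpl38, chr11:114668570-114668599, plus strand: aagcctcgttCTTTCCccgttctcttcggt
Rpl15, chr14:18270967-18270996, minus strand: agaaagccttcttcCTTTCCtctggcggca

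Of the 25 with a match 2 rose and none fell, with a median log2 fold change of 0.07. Of the 35 without 3 rose and 1 fell, with a median of 0.10. Of all tested genes 46.3% were called. The called members Rps4l, Rplp1, Rps14, Rpl30, Rps3a3 and Rpl3 had no matched start region and are in neither group. Rpl32l, annotated as a pseudogene, is among the 60. Among the 3 shown, Rps6 rose, while Rpl38 (0.15, adjusted p = 0.193) and Rpl15 (0.28, adjusted p = 0.0971) did not pass. In the window from 250 bases before to 50 bases after the start, CCGGAAGT, a motif of ETS factors, was found on either strand in 12 of 60 members (20.0%, against 4.31% of genes), and AAGATGG, the core of the YY1 motif, in 10 (16.7% against 7.28%). TATAAA in the last 50 bases before the start was found on the sense strand in 1 member (1.67% against 3.15%).

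Small nucleolar RNAs guide the modification of ribosomal RNA and often sit in introns of ribosomal protein genes. In the annotation 30 members hold at least 1, of which 2 rose (Rpl5 and Rpl30) and 2 fell (Rpl7a and Rpl3). Of the 52 without, 8 rose and none fell. Among those 8 are the 3 members annotated as pseudogenes, Rps4l, Rps3a3 and Rpl32l, which have 1 exon each and so no intron. Of all tested genes 46.3% were called. The difference between these groups was not tested.

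Genes that assemble the ribosome were read from lists of pathway members. Of 36 genes of the small subunit processome and 40S assembly 15 rose and 3 fell (50% called, against 46.3% of all tested genes), with a median log2 fold change of 0.20. Bysl, which acts in late 40S maturation, went from 21.8 ± 1.01 to 44.1 ± 5.13 CPM, a log2 change of 1.02 with an SE of 0.09 (edgeR adjusted p = 2.73e-05). Imp3 (1.07), Utp3 (0.91) and Utp15 (0.72), all processome proteins, rose as well on the log2 scale. Of 40 genes of 60S assembly 19 rose and 1 fell (50% called), with a median of 0.20. Rrs1, which helps to bring the 5S particle in, was at 21.5, 19.9 and 21.6 CPM in controls and at 55.6, 46.7 and 47.5 CPM in mutants (log2 change 1.25 with an SE of 0.09, adjusted p = 5.05e-06). Nop2, a ribosomal RNA methyltransferase (1.03), Efl1, a GTPase of late 60S maturation (0.72), and Mak16 (0.62) rose too.

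Proteins of small nucleolar RNA particles gave 6 rises and 1 fall of 12 (58.3% called), with a median log2 fold change of 0.19. Nucleolin, Ncl, an abundant nucleolar protein, went from 585 ± 30.5 to 1289 ± 127 CPM (log2 change 1.14 with an SE of 0.10, adjusted p = 1.55e-05), and Nhp2, Gar1 and Nop10 of the H/ACA particle rose by 0.88, 0.56 and 0.55. RNA polymerase I, which makes the large ribosomal RNA, had 6 rises and no fall among 20 genes (30% called), with a median of 0.15. Its second largest subunit Polr1b rose by 0.59, Twistnb by 0.44, Cd3eap by 0.38 and the factor Ubtf by 0.33. These lists were set with earlier results of the data known, and 46.3% of all tested genes were called.

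Dedicated chaperones and importers of ribosomal proteins showed 4 rises and 2 falls among 15 tested (40% called). Grwd1, the chaperone of Rpl3, went from 12.3 ± 0.989 to 34.6 ± 2.58 CPM (log2 change 1.497 with an SE of 0.09, adjusted p = 2.65e-06), although Rpl3 itself fell. Tsr2, the chaperone of Rps26, rose by 0.63, while Rps26 had a log2 change of -0.04 (adjusted p = 0.641). Pdcd2l rose by 0.36, and the importin Tnpo1 fell by 0.24 (adjusted p = 0.0212). Of 18 regulators of mTORC1 and of TOP messages 3 rose and 6 fell (50% called, near the 46.3% of all tested genes), with a median of -0.08. Mycn, a transcription factor of growth genes, rose by 2.36 and Eif4ebp1, the translation inhibitor that mTORC1 phosphorylates, by 1.81, whereas Tsc2 (-0.47), an mTORC1 inhibitor, and Mlst8 (-0.49), an mTORC1 subunit, fell. Of 16 genes of ribosome quality control 5 rose and 4 fell (56.2% called), among them Pelo (1.13) and Usp10 (0.67) upward and Gigyf2 (-0.46) and Ascc2 (-0.36) downward. The plot by gene list sets the ribosomal proteins beside the assembly, small nucleolar particle, polymerase, chaperone and mTORC1 lists. The quartiles were -0.12 and 0.19 for the ribosomal proteins and -0.09 and 0.16 for the chaperones and importers.

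**Figure D5:**
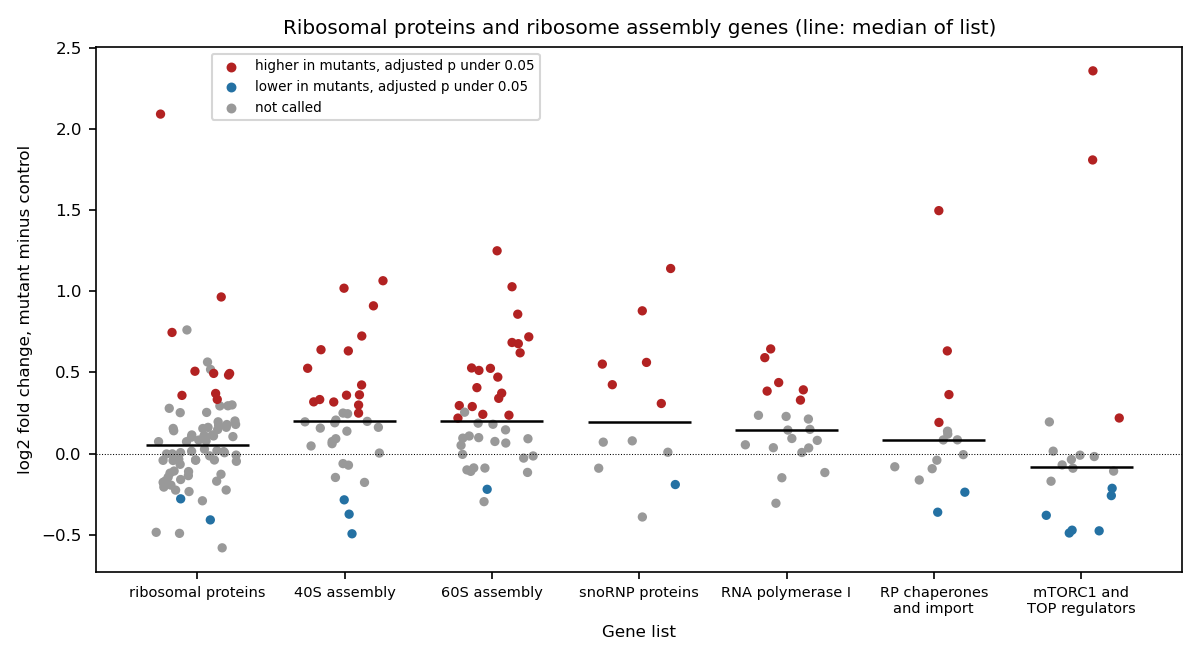
Log2 fold change (mutant minus control) of each tested gene in 7 lists, with the line at the median of the list. Red genes rose, blue genes fell and grey genes did not pass an adjusted p of 0.05, and horizontal position within a list has no meaning. The ribosomal proteins have a median of 0.05 and the 2 assembly lists have medians of 0.20.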

How the data were processed

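RNA from 6 colonic crypt preparations was measured, 3 control and 3 mutant. The deposited values are raw gene counts, whole numbers made by the authors with featureCounts 1.6.4 on the GENCODE vM25 annotation, per the file headers. The command kept there counts read pairs with regard to strand, and it sets no option for pairs that align to several places or lie on several genes. Trimming used Trim Galore 0.6.5 and alignment used STAR 2.6.1d on GRCm38, per the submitters' processing notes. Because fragments that fit several places were not counted, a ribosomal protein gene with close copies elsewhere gets fewer counts than its transcripts gave.

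All 55487 genes were read, and 18376 with at least 10 counts in 3 or more libraries were tested. Library totals ran from 24181631 to 35183636 counts. The quasi-likelihood F test of edgeR 4.0.16 (R 4.3.3, limma 3.58.1) compared genotypes on TMM-scaled counts, 2-sided, with Benjamini-Hochberg adjustment over all tested genes and a threshold of 0.05. CPM values are TMM-scaled. TPM was computed from the counts and the exon lengths in the files. For 5 paralog pairs the log2 ratio of counts (0.5 added to each) was compared by an exact permutation test. The fit was tested on simulated counts for 17950 genes, in which it recovered 41.5% of 1.5-fold, 66.2% of 2-fold and 100% of 4-fold changes, with 4.93% false calls. Libraries of the same group differed beyond counting noise (chi-square per gene 13.3 to 91.2), and each is counted as its own sample.

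Members followed a rule on gene symbols. Members, gene lists, paralog pairs and marker lists were chosen with earlier results of these data known. The genes named were all genes of the pairs, the 8 largest rises and falls among called members, the 5 highest and 5 lowest by TPM, members at the edge of the low-count rule, 10 preset members, Fau, Rack1 and up to 4 genes per list with the smallest p. Other members, Tmtc1 and the pseudogene rows were named after their values were seen. Results of 2 ribosomal protein genes are not reported here by name. Uniqueness was the share of 50-base windows of a gene's transcript that occur in no transcript of another gene in GENCODE release 21, an older release than the 25 of the files. The alternatives were 4 other scalings, 2 other count filters, DESeq2 1.42.0, limma-voom with sample weights, a replicate block, each library left out, mutant 3 alone, a threshold of 0.01 and a test against a 1.2-fold change. One more, TMM-scaled totals for the summed share, was chosen after seeing the data.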

Additional observations from a re-analysis of the deposited data

How the results depend on the processing

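Rps4l, Rplp1, Rps14 and Rps6 were called under all 18 alternatives run, and Rps4l kept a log2 fold change of 2.04 to 2.16. Limits are 3 libraries a group, low unique counts for members with close copies, and sex-linked genes that set mutants 1 and 2 apart. Where a call or value below moved, the cause was not tested. The count of members higher (10) was 16 with no count filter, 6 at an adjusted p under 0.01, 5 against a 1.2-fold change and 8 to 13 without single libraries. The share of all tested genes called was 46.3% in the main test and 21.5% with no count filter. It was 31.7% at an adjusted p under 0.01 and 30.8% against a 1.2-fold change. With no count filter, 89 members were tested and their called share was near that of all genes. At an adjusted p under 0.01 no member was lower, and against a 1.2-fold change again 0 were lower; of 82 members 20 had an unadjusted p under 0.05. The count lower (2) was 4 with no count filter, 5 with limma-voom, 1 with library totals, 1 with mutant 3 alone and 1 to 6 without single libraries. DESeq2 gave 14 higher and 2 lower. Of all tested genes DESeq2 called 44.1% and limma-voom 49.3%. The median log2 fold change (0.05) was 0.11 with library totals, which moved the median of all genes to 0.07, and -0.0040 to 0.08 without single libraries. The difference in summed share was 0.0268 points with upper-quartile scaling and 0.0520 to 0.0876 without single libraries.

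No pairing by replicate number was seen: deviations of same-numbered libraries correlated at -0.11, -0.06 and -0.15. With the replicate block 10 members were higher and 2 lower, 10 of the 12 main calls among them; Rpl31 (adjusted p = 0.0686) and Rpl32l (0.0654) were not called there and Rpl36 and Rps15a were, and 7343 genes were called in place of 8504. With mutant 3 alone, where the lone mutant is assumed to vary like the controls, the log2 ratios were 1.92 for Rps4l over Rps4x, 1.03 for Rpl36al over Rpl36a and 0.19 for Rpl22l1 over Rpl22. Without single libraries they were 1.98 to 2.09, 0.59 to 0.83 and -0.12 to 0.08, and for Rps27l over Rps27 -0.07 to 0.22 and for Rpl7l1 over Rpl7 -0.01 to 0.18.

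Signs turned in 36 cases, all of genes that were not called in the main test or under that alternative. With upper-quartile scaling the log2 fold changes were -0.012 for Rpl7, -0.00500 for Rpl8 and -0.00858 for Rpsa. With library totals they were 0.00127 for Rps15 and 0.045 for Rack1. With no count filter they were -0.023 for Rpl22l1, -0.014 for Rpl22, -0.035 for Rpl7, -0.030 for Rpl8 and -0.040 for Rpsa. The stricter filter gave 0.00971 for Rack1, and limma-voom gave -0.029 for Rpsa and 0.014 for Rack1. With mutant 3 alone they were 0.014 for Rpl10, -0.35 for Rpsa and 0.051 for Rack1. Without single libraries the values ran from -0.067 to 0.069 for Rpl7, from -0.023 to 0.061 for Rpl8, from -0.26 to 0.25 for Rpsa, from -0.096 to 0.022 for Rack1 and from -0.11 to 0.11 for Rpl22l1. They ran from -0.080 to 0.58 for Rpl39, from -0.011 to 0.34 for Rps23, from -0.85 to 0.12 for Rpl11, from -0.029 to 0.18 for Rpl35, from -0.31 to 0.065 for Rplp2 and from -0.024 to 0.13 for Rps4x.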

Other observations

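Rows named as pseudogenes of ribosomal protein genes are a set chosen after its values were seen. Of 319 such rows 116 were tested, of which 16 rose, none fell and 100 did not pass the edgeR test. The 16 are 13.8% of the rows tested, against 46.3% of all tested genes and 21.4% of the 1685 other tested pseudogene rows. Of the tested rows 107 had a positive log2 fold change, with a median of 0.66, beside a median of 0.53 over the other pseudogene rows and of 0.19 over all 4240 rows under 1 CPM. Their median level was 0.663 CPM, and a row that was low in controls could pass the count filter only through the mutants, so neither these counts nor the median support a direction. Among the called rows with higher control levels, Rpl37-ps1 went from 2.80 ± 1.32 to 7.51 ± 1.02 CPM (SD, n = 3 each), a log2 change of 1.42 (edgeR adjusted p = 0.0047), and Rps19-ps9 from 2.90 ± 1.02 to 6.57 ± 0.255 CPM, a log2 change of 1.17 (adjusted p = 0.0034). Together the rows took 0.0149%, 0.0135% and 0.0096% of counts in controls 1 to 3 and 0.0169%, 0.0200% and 0.0223% in mutants 1 to 3. The number of genes with a count was 30472 to 31744 in controls and 32954 to 35925 in mutants, and its part in these values was not tested.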
